A study of Raphidocelis subcapitata with 493 samples.

Results

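The fluorotelomer alcohol 6:1 FTOH was examined as a concentration series in the unicellular green alga Raphidocelis subcapitata. The series holds 17 of the 493 libraries of the study, namely those whose label names 6:1 FTOH at 0.1, 0.3, 1, 3, 32 or 100 µM. Each concentration had 3 libraries except 100 µM, which had 2, those numbered 1 and 2. Comparisons of 100 µM with the other groups are therefore not balanced for replicate number. They were compared with the 3 libraries labelled 0 µM DMSO of the same exposure. The libraries at 10 µM were left out of the comparisons. The study exposed the alga to 22 per- and polyfluoroalkyl substances, 2 per exposure, and its title names points of departure, that is, the concentrations at which a response begins. The second compound of the exposure was PFPB. It had 18 libraries at the same concentrations and shared the controls.

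All groups, controls included, were algae in exponential growth kept for 24 h in sealed deep-well plates under constant light, with 0.33% solvent in every well. The labels name DMSO for the controls, whereas the series text names DMSO or methanol, and the solvent of 6:1 FTOH itself is not given in the sources used here. Concentrations are nominal. RNA came from pooled homogenates of wells, and the labels do not say whether libraries of one concentration came from separate cultures. The p-values therefore reflect how far these libraries vary among themselves, and that variation may be technical. With pooled cells, fewer responding cells and a smaller response per cell cannot be told apart.

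Raphidocelis subcapitata is a freshwater alga widely used in growth inhibition tests of chemicals. Per- and polyfluoroalkyl substances carry chains in which fluorine replaces hydrogen on carbon, and these chains repel both water and fat and resist breakdown. Fluorotelomer alcohols carry a hydroxyl group on such a chain. In many organisms they are known as volatile, uncharged precursors of perfluorinated carboxylic acids.

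Messenger RNA was counted by sequencing tags near the polyadenylated end of each transcript. The tables hold 13429 gene identifiers, of which 9581 had enough counts to be tested. They do not pair the identifiers with gene names, and no annotation was used here, so genes are described by level, direction and number. The 2 genes that rose and the 2 that fell most are given by identifier. They were chosen among genes that averaged 10 counts or more both at 100 µM and in DMSO. The levels at 100 µM also had to lie wholly above or below those in DMSO, so that separation was fixed by the choice.

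The total count per library was 869339 to 1763029 for 6:1 FTOH and 751128 to 1335063 for DMSO. DMSO replicate 3 was the shallowest and stood apart from the other controls. Its median absolute log2 difference was 0.433 from replicate 1 and 0.365 from replicate 2, while replicates 1 and 2 differed by 0.289. The 16 pairs within a concentration of 6:1 FTOH differed by 0.229 to 0.351. The 3 libraries at 0.1 µM had totals of 869339, 1125693 and 875205, against 1525795 to 1790505 for PFPB at 0.1 µM. No pair of libraries agreed within counting noise, so none was treated as a duplicate.

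Few genes differed from DMSO at 0.3, 1 and 3 µM of 6:1 FTOH. Among the 6 concentrations compared the number was largest at 100 µM with all libraries in the fit, but larger at 0.1 µM without number 3 in every group (562 against 387) or without DMSO replicate 3 (479 against 259). At 100 µM, 88 genes were higher and 109 lower (edgeR, adjusted p under 0.05), together 2.06% of the genes tested. The change was at least 2-fold for 120 of them, 56 higher and 64 lower, and its median size was 1.12 on the log2 scale. At 32 µM, 44 genes were called, 31 higher and 13 lower, or 0.459% of the genes tested. At 3 µM, 15 were called (0.157%), and 14 of these were lower. At 0.3 µM edgeR called 0 genes, with 771 at an unadjusted p under 0.05 and 1 gene called by DESeq2. At 1 µM it also called 0, with 590 at an unadjusted p under 0.05 and 3 by DESeq2. The median 95% half-width of a log2 fold change at 100 µM was 0.72, so smaller changes were not detectable for many genes. In counts simulated from these libraries, with the same spread for a gene in all groups, 48% of 2-fold and 79% of 4-fold changes at 100 µM were recovered.

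**Figure D1:**
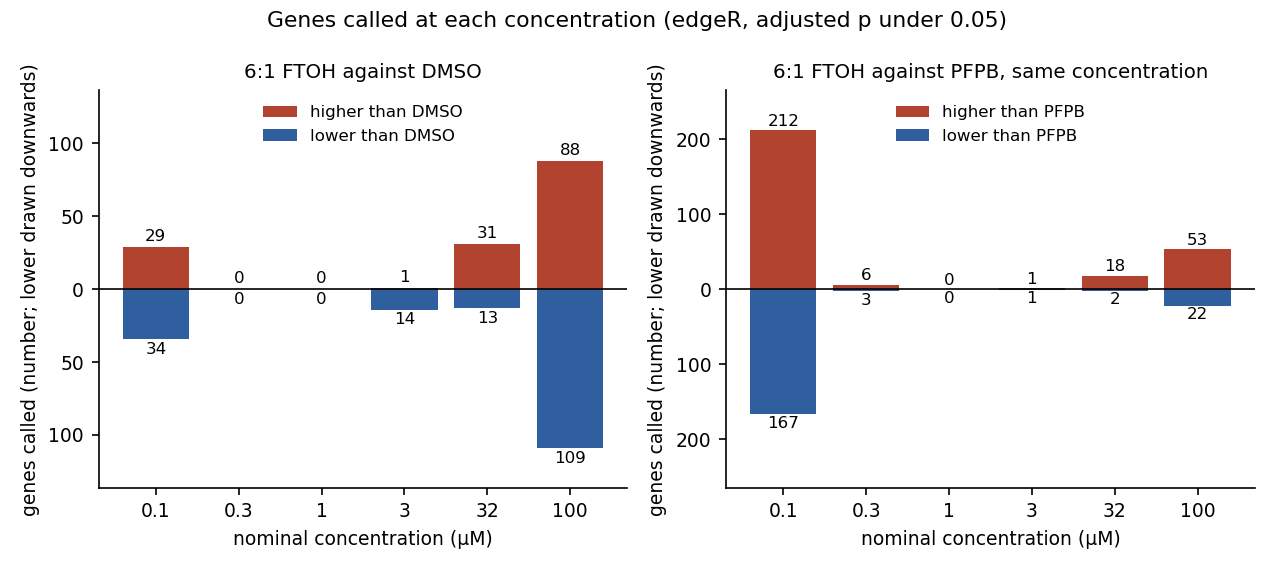
The bars give the number of genes called at each nominal concentration (µM), higher drawn upwards and lower downwards. On the left 6:1 FTOH is set against DMSO, with 88 and 109 genes at 100 µM. On the right it is set against PFPB at the same concentration, with 212 and 167 genes at 0.1 µM and 53 and 22 at 100 µM.

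The count at 100 µM rests on few libraries. It was 68 without the first 100 µM library (43 higher, 25 lower), 63 without the second (42 and 21) and 104 without DMSO replicate 1 (55 and 49). Without number 1 in every group it was 47 (32 and 15), without number 2 23 (18 and 5) and without number 3 387 (190 and 197). The majority of falls thus turned into a majority of rises in 5 of these fits, and without scaling factors 93 were higher and 95 lower. The count at 32 µM was 3 without number 2, 12 without number 1, 20 without DMSO replicate 1 and 73 without DMSO replicate 3. That at 3 µM ranged from 1 without number 1 to 32 without DMSO replicate 3. It was 2 without number 2 and 4 without DMSO replicate 1. At 0.3 µM 24 genes were called without number 3 and 19 without DMSO replicate 3.

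Rsub_07655 rose most among the genes called at 100 µM that averaged 10 counts or more both there and in DMSO. Without that limit on counts, the log2 fold change of called genes went up to 7.21. The level of Rsub_07655 was 16.2, 22.5 and 29.3 CPM (counts scaled to the library total) in the 3 DMSO libraries. It was 116, 114 and 154 CPM at 32 µM and 278 and 230 CPM at 100 µM. All libraries at 32 and 100 µM lay above all controls, which at 100 µM the choice of genes required. At 1 and 3 µM the level was between 19.3 and 28.1 CPM and overlapped the controls. The libraries at 0.1 µM, at 40.3 to 51.4 CPM, and at 0.3 µM, at 31.3 to 33.1 CPM, lay above the controls but below those at 32 µM. The log2 fold change against DMSO was 3.48 at 100 µM (SE 0.26, edgeR adjusted p = 2.1e-11), an 11.2-fold rise. It was 2.48 at 32 µM (SE 0.24, edgeR adjusted p = 6.6e-08) and 1.01 at 0.1 µM, where the edgeR adjusted p was 0.064. From 1 to 32 µM its level rose by 2.50 on the log2 scale (SE 0.23, edgeR adjusted p = 1.8e-08). That comparison uses neither the 100 µM nor the DMSO libraries, but its test came from the same fit.

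Rsub_05610 was at 8.54, 15 and 13.3 CPM in DMSO. It had 29.4, 39.2 and 40.5 CPM at 32 µM and 70.7 and 118 CPM at 100 µM, above all 3 controls of the exposure. At 3 µM and below it ranged from 5.71 to 19.6 CPM and overlapped the controls. The log2 fold change at 100 µM was 2.91 (SE 0.38, edgeR adjusted p = 3.7e-06). At 32 µM it was 1.52, and the edgeR adjusted p was 0.05.

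The 2 genes that fell most under the same limit on counts had less even controls. Over all genes called at 100 µM the log2 fold change went down to -2.75. Rsub_03247 was at 58.1, 56.9 and 22.6 CPM in DMSO and at 8.04 and 12.4 CPM at 100 µM. The lowest of the controls was DMSO replicate 3, and both libraries at 100 µM lay below it, which the choice of genes required. Between those concentrations the levels overlapped, with 17 to 30.7 CPM at 1 µM and 12.6 to 34 CPM at 32 µM. The log2 fold change at 100 µM was -2.20 (SE 0.47, edgeR adjusted p = 0.0057). Rsub_04692 was at 47.8, 36 and 17.3 CPM in DMSO, again lowest in replicate 3, and at 12.1 and 4.73 CPM at 100 µM. At 32 µM it had 32.2, 37.2 and 12.5 CPM, within the range of the controls for all but the last. Its log2 fold change at 100 µM was -2.11 (SE 0.52, edgeR adjusted p = 0.021). Over the 14 other settings and left-out libraries tried, both rises kept their call. Rsub_03247 and Rsub_04692 each lost it in 4, with adjusted p up to 0.41 and 0.66, and no direction turned.

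**Figure D2:**
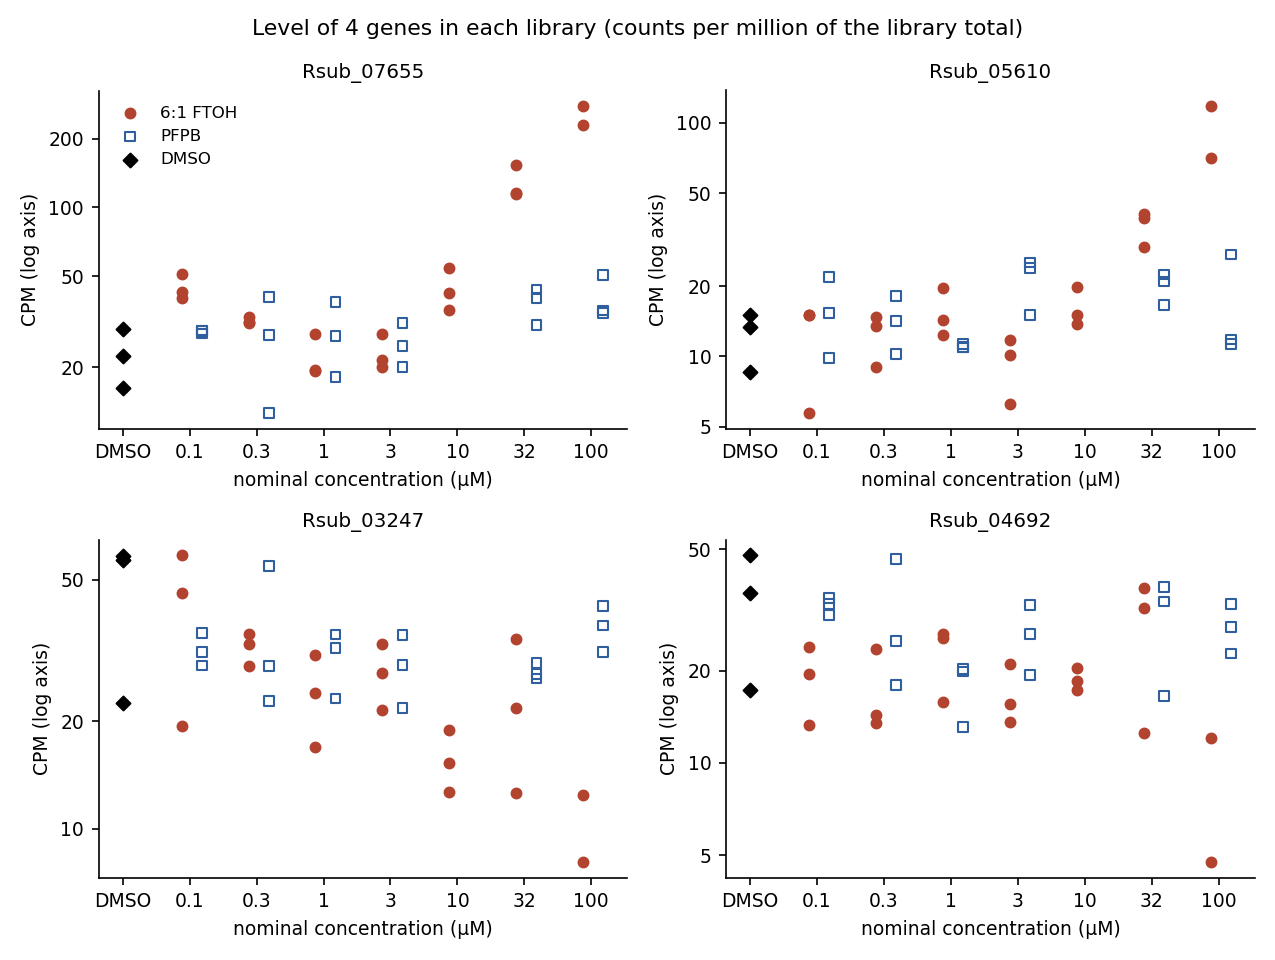
Points give the level of 4 genes in each library (CPM of the library total, log axis) by nominal concentration (µM), for DMSO (diamonds), 6:1 FTOH (circles) and PFPB (open squares); 10 µM is shown for 6:1 FTOH alone and entered no comparison. Rsub_07655 and Rsub_05610 reached 230 to 278 and 70.7 to 118 CPM at 100 µM 6:1 FTOH, above all PFPB libraries, while the controls of Rsub_03247 and Rsub_04692 spread from 22.6 to 58.1 and from 17.3 to 47.8 CPM.

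The 11 exposures of the study had 33 DMSO libraries in all, which give a wider view of the levels without the alcohol. The own control of Rsub_07655, at 22.7 ± 6.55 CPM (SD, n = 3), was the second lowest of the 11 exposures, whose means ran from 19.2 to 50 CPM. No control library of any exposure exceeded 64.8 CPM, below both 100 µM libraries and the 3 at 32 µM. For Rsub_05610 the own control mean was 12.3 CPM, also second lowest, in a range of 10.7 to 43.9. Its highest single control library, at 51.6 CPM, lay below both 100 µM libraries but above all 3 at 32 µM. The own control of Rsub_04692 was the highest of the 11, at 33.7 CPM in a range of 10.9 to 33.7. That of Rsub_03247 was the second highest, at 45.9 CPM in a range of 15.7 to 49.4. Single control libraries went down to 3.28 CPM for Rsub_03247, below both of its 100 µM values. For Rsub_04692 they went down to 6.56 CPM, which lies between its 2 values at 100 µM.

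The same view over both lists gave different counts for rises and falls. Of the 88 rises, 45 (51.1%) were higher in both 100 µM libraries than in any of the 33 controls, against 0.981% of all genes tested. Of the 109 falls, 10 (9.17%) were lower than in any control, against 0.543% of all genes. For the falls, the own control mean was above the median of the 11 exposures for 96 genes (88.1%), against 41.7% of all genes. For the rises it was below that median for 56 genes (63.6%), against 49.7%. Both lists were chosen with the same 100 µM libraries and with the own controls, which are among the 33. These counts are therefore a description, and an excess over all genes was favoured in advance. The part of the control level in these counts was not tested. The genes in both lists were abundant, with median control levels of 94 CPM for the rises and 149 CPM for the falls, against 34.2 CPM over all genes. Of the 9581 genes tested, 1248 averaged under 10 counts in DMSO, against 9 of the rises and 0 of the falls. A change is harder to call at low counts, and the part of this in the contrast was not tested. Levels of other exposures were set side by side as CPM, from tables the authors deposited separately.

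The genes called at 100 µM were followed in comparisons that use neither the 100 µM nor the DMSO libraries. All libraries of the series shared a single fit, however, so the estimate of spread was the same as for the calls at 100 µM. The overlaps of called genes are therefore not independent of the choice. Between 32 and 1 µM, 83 of the 88 rises were higher at 32 µM, with a median log2 difference of 0.56, and 102 of the 109 falls were lower, with a median of -0.38. Over all genes 50.2% were higher and the median was 0. The test between 32 and 1 µM called 29 genes, 0.303% of those tested. All 20 genes it called as higher (0.209% of all genes) were among the rises, and 7 of the 9 it called as lower (0.0939%) were among the falls. Between 32 and 0.3 µM, 81 rises were higher and 97 falls were lower, with medians of 0.48 and -0.28. Of the 25 genes called there (0.261%), 18 were higher (0.188%), 17 of them among the rises, and 7 were lower (0.0731%), 6 of them among the falls.

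At 3 µM and below both lists had smaller medians. Between 3 and 1 µM, 67 rises were higher with a median of 0.14, and 88 falls were lower with a median of -0.30. The test between 3 and 1 µM called 4 genes (0.0417%), all lower at 3 µM, and 3 of them were among the falls. Between 0.3 and 1 µM, 56 rises were higher and 66 falls were lower, with medians of 0.09 and -0.07. Between 0.1 and 1 µM the medians were 0.04 for both lists.

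**Figure D3:**
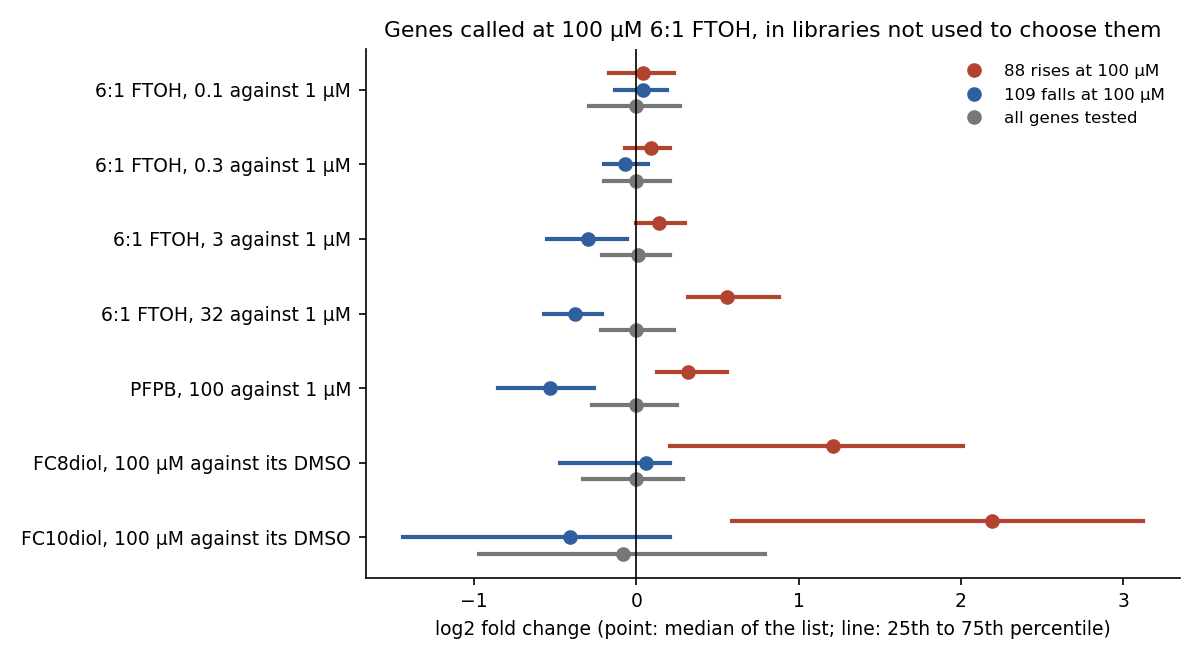
Points are medians and lines run from the 25th to the 75th percentile of log2 fold changes, for the 88 rises and 109 falls called at 100 µM and for all genes tested, in comparisons that use none of those libraries. The rises had medians of 0.56 between 32 and 1 µM, 0.32 with PFPB, 1.21 with FC8diol and 2.19 with FC10diol, whereas the falls had -0.38, -0.53, 0.06 and -0.41.

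In single libraries the rises at 32 µM lay apart from those at 3 µM and below but overlapped those at 10 µM, which were at 0.38 to 0.46. The falls at 32 µM overlapped those at 3 µM, and at 10 µM, with -0.60 to -0.70, they lay below all 3 libraries at 32 µM. Relative to the mean of the 1 µM libraries, the median of the 88 rises was 0.42, 0.47 and 0.72 in the 3 libraries at 32 µM and 0.98 and 0.94 in those at 100 µM, on the log2 scale. The median of the 109 falls was -0.26 to -0.40 at 3 µM, -0.25, -0.32 and -0.58 at 32 µM and -0.86 and -0.79 at 100 µM. The values at 100 µM and in DMSO describe the choice of the lists. In DMSO the rises had -0.39, -0.17 and -0.02 and the falls 0.41, 0.06 and 0.08, with DMSO replicate 1 farthest from the treated libraries in both.

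**Figure D4:**
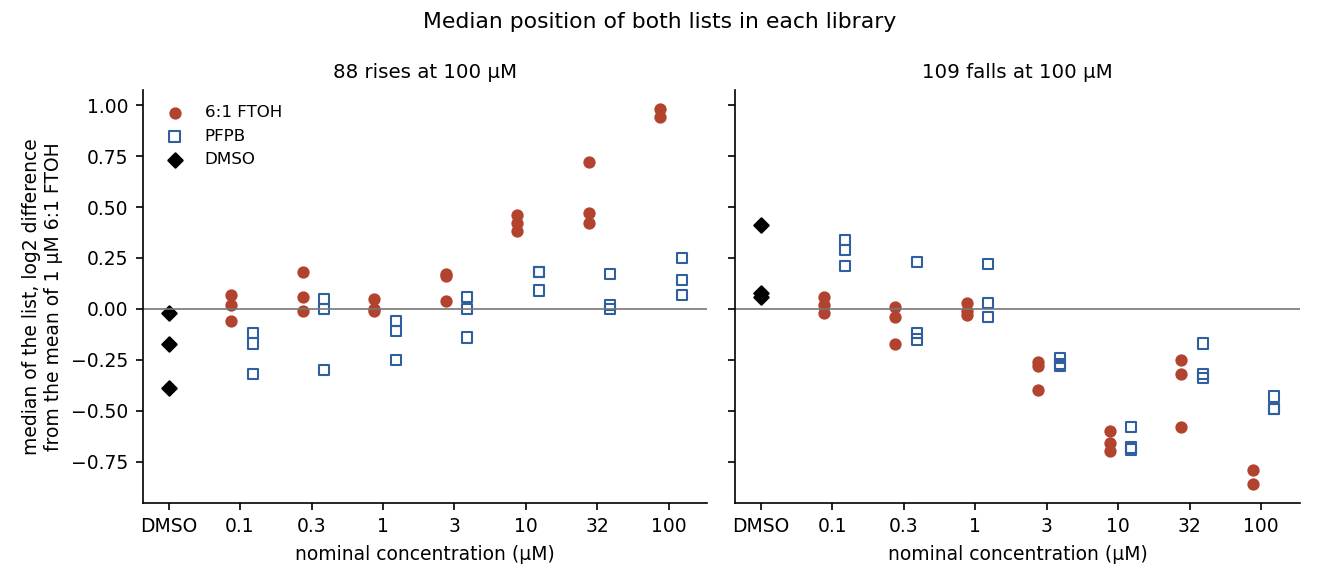
Each point is 1 library, and its height is the median log2 difference of a list from the mean of the 1 µM 6:1 FTOH libraries, by nominal concentration (µM). The rises reached 0.42 to 0.72 at 32 µM 6:1 FTOH but 0 to 0.17 at 32 µM PFPB, while the falls reached -0.43 to -0.49 at 100 µM PFPB; 10 µM is shown but entered no comparison.

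Comparisons inside the series set treated libraries against each other. The controls enter them only through the shared filter on counts, scaling and estimate of spread. Between 100 and 1 µM, 171 genes differed (1.78%), 88 higher and 83 lower at 100 µM. Between 100 and 0.3 µM, 124 differed (1.29%), 62 in each direction, and between 100 and 3 µM 60 differed (0.626%), 43 higher and 17 lower. Between 100 and 32 µM 2 genes differed (0.0209%), and 402 had an unadjusted p under 0.05. Without the first or second 100 µM library the count between 100 and 1 µM was 53 and 52, and without number 1 or 2 in every group it was 44 and 16. The count between 100 and 0.3 µM was then 49 and 44, and 37 and 15, and it was 190 without number 3.

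At 0.1 µM, the lowest concentration, 63 genes were called against DMSO (0.658%), 29 higher and 34 lower, and 26 of them changed at least 2-fold. Against 100 µM, 362 genes differed (3.78%), 162 higher at 100 µM and 200 lower, or 189 and 176 without scaling factors. Against 3 µM, 162 differed (1.69%), 106 higher at 0.1 µM and 56 lower. The test between 0.1 and 0.3 µM called 0 genes by edgeR, with 664 at an unadjusted p under 0.05 and 0 by DESeq2. Between 0.1 and 1 µM it called 3 (0.0313%), 1 higher and 2 lower. The 3 libraries at 0.1 µM included the 2 shallowest of 6:1 FTOH, and the part of depth in these counts was not tested. The 63 genes became 0 without number 1 or without number 2 in every group, 2 without DMSO replicate 1, 7 without DMSO replicate 2 and 36 without either 100 µM library. They became 562 without number 3 and 479 without DMSO replicate 3. The order against 32 µM, with 44 genes in all libraries, turned without number 1 or 2 and without DMSO replicate 1 or 2. The 362 genes became 84 and 17 without number 1 or 2, and 99 and 92 without the first or second 100 µM library, with 54 higher and 38 lower in the last. The 3 genes became 118 without number 3 and 15 without DMSO replicate 3, and 0 without number 1 or 2.

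A trend over the ranked concentrations, with DMSO at the lowest rank, was found for 304 genes (3.17%), 129 rising and 175 falling. Without scaling factors between libraries the split was 159 rising and 142 falling. Rsub_07655 rose by 0.51 per rank on the log2 scale (SE 0.09, edgeR adjusted p = 0.0039) and Rsub_05610 by 0.46 (SE 0.08, edgeR adjusted p = 0.00049). Rsub_03247 fell by 0.27 per rank (SE 0.05, edgeR adjusted p = 0.0025). Rsub_04692 had -0.14, with an edgeR adjusted p of 0.33. With the controls left out, 566 of 9526 genes had a trend (5.94%), 241 rising and 325 falling, or 285 and 283 without scaling factors. With the 0.1 µM libraries left out as well, 109 rose and 95 fell, 204 in all, so the direction of the majority depends on these choices. Without number 1, 2 or 3 in every group the trend with controls was found for 82, 79 and 201 genes, and without the first or second 100 µM library for 159 and 142. The trend without controls was found for 234 and 152 genes without number 1 or 2, and for 364 without either 100 µM library.

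Benchmark concentrations, where a fitted curve leaves its start by 1 residual SD, could be given for 242 genes whose trend was called and which moved by 1.5-fold or more at any of the concentrations. Their 10th percentile was 0.362 µM and their median 1.85 µM. At the median, genes that fell had lower benchmark concentrations than genes that rose, 1.46 µM over 133 falls and 3.36 µM over 109 rises. At the 10th percentile the order was the other way, with 0.419 µM for the falls and 0.307 µM for the rises. Above 32 µM lay 11 falls and 2 rises. These differences are given without a test. Most values lay within the tested range, with 138 between 0.1 and 3 µM, 81 between 3 and 32 µM and 13 above 32 µM. The 10 values under 0.1 µM are extrapolations. Rsub_07655 had a benchmark concentration of 16.6 µM, Rsub_05610 of 7.97 µM and Rsub_03247 of 2.1 µM. The 10th percentile was 0.0339 µM, below the tested range, with curves fitted without DMSO, and 0.144 µM without the 0.1 µM libraries. With single libraries or replicate numbers left out it ranged from 0.203 to 0.327 µM. Every value in that range came from fewer libraries and partly other genes, and it lies below 0.362 µM, so it gives no error for it.

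**Figure D5:**
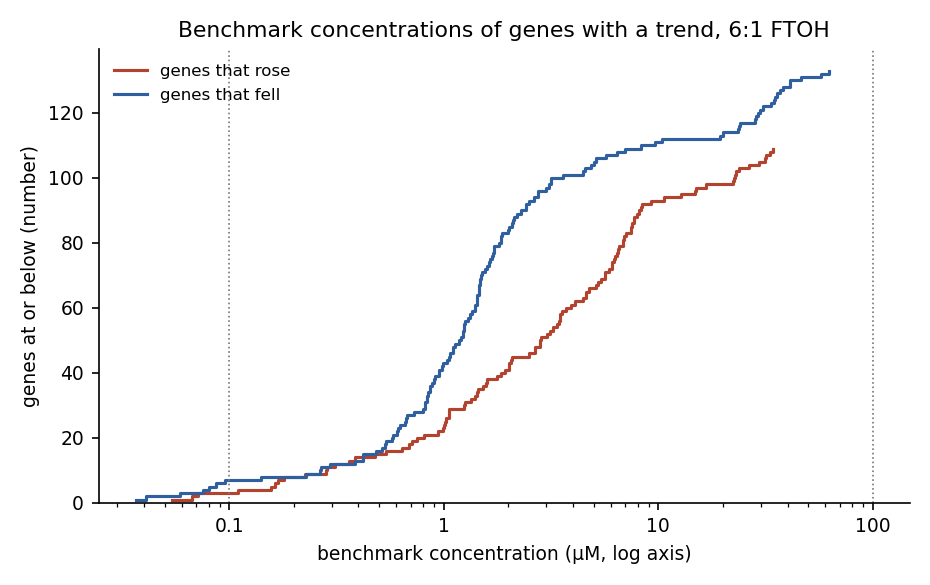
The lines give the number of genes (vertical axis) whose benchmark concentration was at or below the value on the horizontal axis (µM, log axis), for 109 genes that rose and 133 that fell; dotted lines mark 0.1 and 100 µM. The falls had a median of 1.46 µM and the rises 3.36 µM, while their 10th percentiles were 0.419 and 0.307 µM.

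PFPB from the same exposure allowed a direct comparison at each concentration. At 100 µM, 75 of 9859 genes differed (0.761%), 53 higher with 6:1 FTOH and 22 lower, and 49 differed at least 2-fold. At 32 µM, 20 differed (0.203%), 18 higher and 2 lower, or 13 higher and 4 lower without scaling factors. At 3 µM 2 differed (0.0203%). At 1 µM edgeR called 0, with 685 at an unadjusted p under 0.05 and 6 by DESeq2. At 0.3 µM 9 differed (0.0913%), 6 higher and 3 lower, or 3 and 3 without scaling factors. At 0.1 µM 379 differed (3.84%), 212 higher and 167 lower. The median 95% half-width of the difference at 100 µM was 0.69 on the log2 scale, so a gene not called may still differ.

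At 100 µM Rsub_07655 was higher with 6:1 FTOH than with PFPB by 2.67 on the log2 scale (SE 0.27, edgeR adjusted p = 5.1e-10), and at 32 µM by 1.78 (edgeR adjusted p = 1.8e-05). Rsub_05610 had 11.3, 11.8 and 27.3 CPM at 100 µM PFPB and was higher with 6:1 FTOH by 2.51 (SE 0.37, edgeR adjusted p = 5.9e-06). Rsub_03247 had 42.1, 31.3 and 37.2 CPM with PFPB and was lower with 6:1 FTOH by 1.80, a log2 difference of -1.80 (SE 0.43, edgeR adjusted p = 0.019). For Rsub_04692 the difference was -1.76, with an edgeR adjusted p of 0.08. Among the 88 rises, 42 were called higher than with PFPB, and among the 109 falls 15 were called lower. Both lists were chosen with the same 100 µM libraries, so these counts are a description.

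The count at 100 µM was 42 without the first 100 µM library, 32 without the second, and 46 and 14 without number 1 or 2 in every group. The count at 0.1 µM was 2 without number 2 and 75 without number 1. That at 32 µM was 2 without number 2 and 12 without number 3. That at 0.3 µM was 1 and 0 without number 1 or 2 and 19 without DMSO replicate 3.

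The fold change of PFPB itself from 1 to 100 µM sets neither the controls nor any 6:1 FTOH library against another. Both shared the filter on counts, scaling and estimate of spread behind its calls. It was called for 129 genes (1.31%), 34 higher (0.345%) and 95 lower (0.964%). Of the 109 falls with 6:1 FTOH, 96 were lower at 100 µM PFPB, with a median of -0.53, and 38 were called lower. These 38 were 34.9% of the falls and 40% of the 95 genes that fell with PFPB. Of the 88 rises, 74 were higher, with a median of 0.32, and 9 were called higher, which is 10.2% of the rises and 26.5% of the 34. Called without DMSO replicate 3, the falls numbered 130 and 28.5% of them fell with PFPB.

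FC8diol and FC10diol are 2 fluorinated compounds named as diols in the labels, tested together in another exposure with controls of its own. The fit of each diol also held the 6:1 FTOH libraries and their controls, so these shared the estimate of spread behind its calls. With FC8diol at 100 µM 338 genes rose (3.45%) and 298 fell (3.05%) against its DMSO, together 6.50% of 9784 genes. Of the 88 genes that rose with 6:1 FTOH, 57 also rose with FC8diol, which is 64.8% of that list and 16.9% of the 338. Their list had a median log2 fold change of 1.21 with FC8diol, against 0 over all genes. Of the 109 falls, 17 fell with FC8diol, which is 15.6% of that list and 5.7% of the 298, and the median was 0.06. With 6:1 FTOH rises called without DMSO replicate 3, which numbered 129, the share that rose with FC8diol was 51.9%.

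Of the 42 rises higher than with PFPB, 38 rose with FC8diol, and of the other 46 rises 19 did, against 3.45% of all genes. The 100 µM libraries that chose the rises also chose the 42, and the difference between these shares was not tested. Of the 38 falls that also fell with PFPB, 0 were called lower with FC8diol by edgeR, with 1 at an unadjusted p under 0.05. Of the other 71 falls, 17 were called lower. Over all genes 3.05% were called lower with FC8diol, a share that 0 of 38 is not shown to depart from.

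FC10diol changed 53.9% of 9804 genes at 100 µM, 2553 higher (26.0%) and 2733 lower (27.9%), so a list of any kind would hold many of its genes. Of the 88 rises, 64 were called higher and 9 lower with FC10diol, with a median of 2.19, against -0.08 over all genes. Of the 109 falls, 49 were called lower and 18 higher, with a median of -0.41.

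The change with 6:1 FTOH was compared with that of each diol, both against their own controls. It differed from FC8diol for 293 genes (2.99%), 109 with a higher and 184 with a lower change for 6:1 FTOH. Without scaling factors the split was 184 higher and 124 lower, so the direction of the majority depends on the scaling, which moved the median of all genes from -0.02 to 0.11 on the log2 scale. The median 95% half-width was 0.94 on the log2 scale. Among the 88 rises, 13 had a higher change with 6:1 FTOH, 10 a lower one and 65 were not called. Among the 109 falls, 53 had a lower change with 6:1 FTOH, 2 a higher one and 54 were not called. Both lists were chosen with the 100 µM and DMSO libraries that form 1 arm of this difference, so these counts are a description and favour a lower change for the falls in advance. The count was 15 without number 2 in every group, 122 without number 1, 118 without the first and 159 without the second 100 µM library. It was 190 without number 3 and 449 without DMSO replicate 3 of the exposure of 6:1 FTOH.

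For Rsub_07655 the log2 change was 3.48 with 6:1 FTOH and 3.28 with FC8diol. The difference was 0.20, with a 95% half-width of 0.62 and an edgeR adjusted p of 0.81. Rsub_05610 rose by 3.84 with FC8diol, and the difference was -0.94 with a half-width of 0.84 and an edgeR adjusted p of 0.24. Rsub_03247 had 0.60 with FC8diol (edgeR adjusted p = 0.49), and the difference was -2.81 (SE 0.66, edgeR adjusted p = 0.0093). FC10diol raised Rsub_07655 by 4.52, which was more than 6:1 FTOH did, with a difference of -1.03 (SE 0.32, edgeR adjusted p = 0.008). For Rsub_05610 that difference was also -1.03, with an edgeR adjusted p of 0.065.

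From FC10diol the change differed for 3750 genes (38.2%), 1891 higher and 1859 lower with 6:1 FTOH. Without scaling factors the numbers were 2833 and 1258, and the median of all genes moved from 0.05 to 0.46. Among the 88 rises, 44 had a lower change with 6:1 FTOH and 21 a higher one. Among the 109 falls, 51 had a lower change and 19 a higher one. As with FC8diol, these lists were chosen on libraries of the same difference, and the counts are a description.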

How the data were processed

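Whole-number counts per gene were deposited by the authors, in 1 table per compound. The submitters' processing notes name featureCounts 2.0.6, SAMtools 1.15.1, STAR 2.7.10a and fastp 0.23.2. The build, the annotation and any collapsing by molecular identifier were not given in the sources used here. Without collapsing, part of each count is amplification. Overlapping genes and near-identical copies can share reads.

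Groups came from the labels. The 3 control columns held the same values in the table of 6:1 FTOH and in that of PFPB. The tests ran in edgeR 4.0.16 under R 4.3.3 (group-wise filterByExpr, TMM, robust glmQLFit, glmQLFTest), with Benjamini-Hochberg adjustment over all genes of a fit and a threshold of 0.05. The 20 libraries of 6:1 FTOH and DMSO formed 1 fit, PFPB was added in another, and FC8diol and FC10diol with their controls in 1 more each. Levels are CPM of the library total, and curves used log2 CPM with a prior count of 2. Hill, power, linear and saturating exponential curves were compared by AIC. The steps were tested on simulated data. Genes named are the 2 largest rises and falls among 179 of the 197 genes called at 100 µM. These 179 averaged 10 counts or more both there and in DMSO, with no overlap in level between the libraries at 100 µM and DMSO. All 88 rises and all 109 falls were without such overlap, against 2603 of the 9581 genes tested. The gene lists planned by function could not be applied without names. The members and lists were chosen with earlier results of these data known. DESeq2 1.42.0, other scalings, no filter, the replicate number as a block and left-out libraries were alternatives. Leaving out the 0.1 µM libraries, and calling the lists without DMSO replicate 3, were chosen after seeing the data.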

Additional observations from a re-analysis of the deposited data

Results flagged for a closer look

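Differences between 6:1 FTOH and related compounds were singled out where a test of the difference itself called genes. Against PFPB these were 75 genes (0.761%) at the highest concentration of 100 µM and 20 (0.203%) at 32 µM. They were 379 (3.84%) at the lowest, 0.1 µM, with 9 (0.0913%) at 0.3 µM and 2 (0.0203%) at 3 µM. Single libraries or numbers left out gave 2 to 509 at 0.1 µM, 0 to 5 at 3 µM and 14 to 80 at 100 µM. The 0.1 µM libraries of 6:1 FTOH were shallower than those of PFPB, and the part of depth was not tested. The change against the own control differed from that of FC8diol for 293 genes (2.99%) and from that of FC10diol for 3750 (38.2%).

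Among the genes given by identifier, the log2 difference from PFPB at 100 µM was 2.67 for Rsub_07655, 2.51 for Rsub_05610 and -1.80 for Rsub_03247. The difference of changes from FC8diol was -2.81 for Rsub_03247. From FC10diol it was -1.03 for Rsub_07655 and -3.17 for Rsub_03247.

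The 10 µM libraries, which entered no comparison of the report, differed from DMSO in 1369 of 9646 genes (14.2%; edgeR, adjusted p under 0.05), 604 higher and 765 lower, more than at 32 or 100 µM. These 3 libraries were deeper than the others of 6:1 FTOH, with totals of 1889675 to 2006553, and the part of depth was not tested. Libraries of PFPB at 10 µM shifted too. Relative to the mean of 1 µM 6:1 FTOH, the median log2 difference of the 109 falls was -0.58, -0.68 and -0.69 there. At 10 µM 6:1 FTOH it was -0.66, -0.7 and -0.6. For the 88 rises it was 0.09, 0.18 and 0.18 with PFPB and 0.38, 0.46 and 0.42 with 6:1 FTOH. The part of 6:1 FTOH itself in the 1369 genes was not tested.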

How the results depend on the processing

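Results named here are counts of genes called, or the benchmark concentration in µM. Against DMSO, with concentrations in rising order from 0.1 to 100 µM, the counts were 254, 10, 10, 57 and 90 up to 32 µM without the filter on low counts, 221, 1, 3, 57, 74 and 308 by DESeq2, and 331, 14, 5, 61, 90 and 426 with the replicate number as a block. Single libraries or numbers left out gave 0 to 562, 0 to 24, 0 to 1, 1 to 32, 3 to 73 and 23 to 387. The count at 0.1 µM was 108 with the 10 µM libraries kept. The trend was found for 470 genes by DESeq2 and 509 with 10 µM kept, with 79 to 389 over left-out libraries. Without DMSO it was 204 without 0.1 µM, and 152 to 566 over left-out libraries. For 100 against 0.1 µM the block gave 551 and left-out libraries 17 to 465. For 100 against 0.3 µM no filter gave 188, DESeq2 190, the block 266 and left-out libraries 15 to 190. For 100 against 1 µM DESeq2 gave 264, the block 401 and left-out libraries 16 to 216. For 0.1 against 0.3 µM no filter gave 12, the block 2 and left-out libraries 0 to 2. For 0.1 against 1 µM no filter gave 129, DESeq2 59, the block 98, 10 µM kept 6 and left-out libraries 0 to 118. Against PFPB, from 0.1 to 100 µM, the block gave 766, 61, 15, 14, 35 and 144 and left-out libraries 2 to 509, 0 to 19, 0 to 1, 0 to 5, 2 to 27 and 14 to 80. DESeq2 gave 647, 45, 6, 4 and 33 up to 32 µM. At 1 µM no filter gave 4. With 10 µM kept the counts were 18 at 0.3 µM and 0 at 3 µM, and without scaling factors 0 at 3 µM. Against FC8diol the block gave 629 and left-out libraries 15 to 449, and against FC10diol left-out libraries gave 2331 to 3748. The benchmark concentration was 0.104 without the filter, 0.211 with the block, 1.85 for the median gene, 0.24 for genes past 2-fold, 0.0339 without DMSO, 0.144 without 0.1 µM and 0.203 to 0.327 over left-out libraries. The other 83 values under settings other than left-out single libraries or numbers stayed within 1.5 times. RLE size factors moved none. Same-numbered libraries of different groups correlated at -0.08 to 0.38 in their deviations, over 0.1 in 36 of 57 pairs. Not every pair passed 0.1, the condition for taking the numbers as pairing, and the labels do not say what the numbers share, so the fits without the block were kept as the main ones. Calls lost or gained with the block do not measure the strength of an effect. DESeq2 was not run for the benchmark. The causes of these shifts were not tested. In counts simulated with these libraries' depths and numbers, 48% of 2-fold changes at 100 µM were recovered. The simulation gave all groups the same spread for a gene, estimated with PFPB, and same-numbered libraries no shared deviation. Recovery in the real libraries may therefore be lower.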
